A study of Mus musculus with 32 samples.

Results

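The high mobility group (HMG) proteins are small, abundant chromatin proteins that bend, cross-link or loosen DNA without reading a long sequence. Hmga2, Hmga1, Hmgb1, Hmgb2, Hmgn1 and Hmgn2, which stand for the 3 families HMGA, HMGB and HMGN, were followed in a differentiating mouse cell line. Members were matched by the platform's gene symbol. Of the 6 genes, 5 had a probe set, out of 6137 genes with a symbol on the arrays, and together they had 6 probe sets among 13057 that were no controls. All 6 lay on 1 of the 2 array designs, design b. No probe set carried the symbol Hmga1, so that gene is not described.

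UB/OC-1 is a conditionally immortal mouse cell line from the developing organ of Corti, the hearing organ of the inner ear. Total RNA was taken from undifferentiated cells at 33 °C (day 0) and from cells moved to 39 °C for up to 14 days. Experiment A gave 12 days (0 to 9, 11 and 14) and experiment B 4 days (0, 2, 4 and 9), so that each of the 2 designs had 16 arrays, 1 per culture. Every later culture differs from day 0 in both temperature and time, and these cannot be told apart. For the tests, the 2 day 0 arrays were set against 3 later phases. The early phase held the 4 arrays of days 1 to 3, the middle phase the 5 of days 4 to 7, and the late phase the 5 of days 8 to 14. The members of a phase are thus different days, their spread includes any change between those days, and only day 0 and 3 later days were repeated in a second experiment. In bulk RNA, fewer cells expressing a gene and less RNA per cell cannot be told apart.

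HMGA proteins grip the minor groove of AT-rich DNA with short motifs called AT hooks. Hmga2 is abundant in embryonic and proliferating cells, is mostly silent in adult tissue, and is a classic target of the let-7 microRNAs. HMGB proteins bend DNA with HMG boxes. Hmgb1 also acts as an extracellular alarm signal, and Hmgb2 is known from dividing cells. HMGN proteins bind the nucleosome itself and counteract the linker histone H1.

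The deposited values are intensities on a linear scale that can fall below 0. A floor of 198 was used on design b (141 on design a), a level that 75% of the negative values do not pass in size, and lower values were set to it before taking log2. Testing a probe set required 2 or more arrays above the floor. All 6 member probe sets passed this filter, although 1 of them, that of Hmga2, lay above the floor on only 4 arrays. Both day 0 cultures were among the arrays above the floor for every member. Between 30.9% and 40.4% of probe sets on design b lay above the floor per array. Of 12 organ of Corti genes with a probe set, 6 lay above the floor on at least 8 arrays, among them Gata3, Pax2, Bmp4 and Myo7a, and 5 on no array, among them Atoh1, Sox2, Cdh1 and Epcam. Of the macrophage and blood cell markers, 4 of 7 lay above it on at least 8 arrays, and of the endothelial markers 1 of 4 (Kdr). The counts were 4 of 7 for muscle, 3 of 6 for glia and melanocytes and 1 of 5 for neurons (Tubb3). The macrophage receptors Csf1r and Adgre1 and the endothelial genes Pecam1 and Cdh5 were above the floor on no array. Ptprc, Myog and Dct were above it on all 16. Only some markers of the labelled tissue were thus measured above the floor, and some markers of other tissues were too.

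Hmga2, and the family with it, was chosen by its measured fall early and late against day 0, so its values are given as a description, with no test. At day 0 its intensity was 1992 in experiment A and 1687 in experiment B. In experiment A it was 669 at day 1, 162 at day 2, 192 at day 3 and 137 at day 4. It then read -63, 7, 159 and 148 at days 5, 7, 9 and 14, and -230, -150 and -295 at days 6, 8 and 11. In experiment B it was 207 at day 2, 104 at day 4 and 58 at day 9. By day 2 it was at or next to the floor in both experiments. The day 1 value, which only experiment A has, lay between the day 0 level and the floor. No later array overlapped with day 0.

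On the log2 scale the early difference from day 0 was -2.76 ± 0.40 (SE), or 6.75-fold lower, with 2 of 4 early arrays at the floor. In the middle and late phases all 5 arrays of each lay at the floor, so the fitted difference of -3.21 gives only a lower bound, at least 9.26-fold lower. For the same reason the difference late against early (-0.46) has no meaning beyond the early arrays that still lay above the floor. The day 0 intensity was 10.1-fold the floor in experiment A and 8.52-fold in experiment B.

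**Figure D1:**
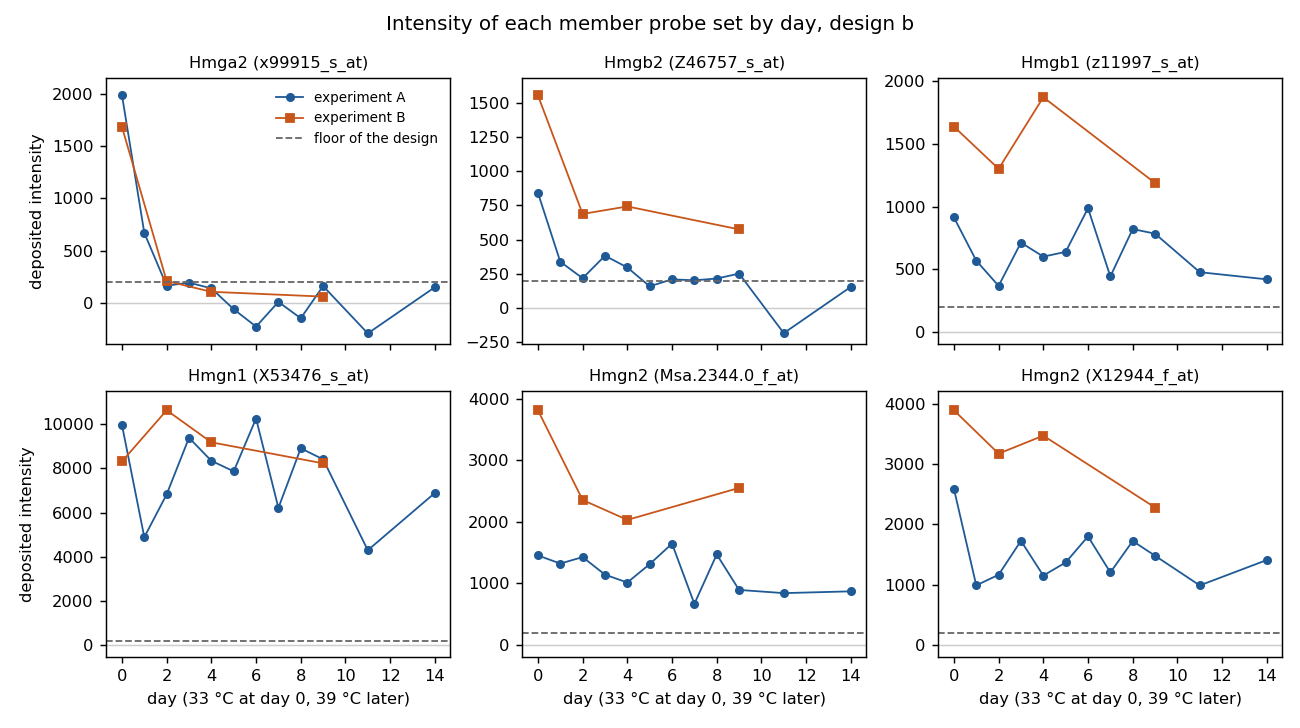
Deposited intensity (linear scale) of the 6 member probe sets on design b against the day, with 1 point per array, for experiment A (circles, 12 days) and experiment B (squares, 4 days); the dashed line is the floor of 198. Hmga2 reached the floor by day 2 to 4 in both experiments, Hmgb2 fell in both to a level that stayed higher in experiment B, and Hmgn1 showed no such step.

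The sequences around the transcription starts of Hmga2 and Hmgb2, the members whose level was lower than day 0 on every later array of both experiments and most so in fold, and of Hmgb1, the closest relative of Hmgb2, are shown to let their promoters be compared. They are RefSeq's, on GRCm38.p6, and each holds 300 bases around the annotated start, most of them before it, 5′ to 3′ on the gene's strand. Capitals mark CCAAT, the box bound by NF-Y, read in the printed strand. The Hmga2 window is chr10:120476420-120476719 (minus strand), the Hmgb2 window chr8:57511593-57511892 (plus strand) and the Hmgb1 window chr5:149053008-149053307 (minus strand).
Hmga2: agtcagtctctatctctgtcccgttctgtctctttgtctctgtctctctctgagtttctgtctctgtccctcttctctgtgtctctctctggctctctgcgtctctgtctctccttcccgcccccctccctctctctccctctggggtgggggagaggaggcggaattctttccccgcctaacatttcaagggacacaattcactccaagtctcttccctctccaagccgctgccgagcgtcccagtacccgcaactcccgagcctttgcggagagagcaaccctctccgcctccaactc
Hmgb2: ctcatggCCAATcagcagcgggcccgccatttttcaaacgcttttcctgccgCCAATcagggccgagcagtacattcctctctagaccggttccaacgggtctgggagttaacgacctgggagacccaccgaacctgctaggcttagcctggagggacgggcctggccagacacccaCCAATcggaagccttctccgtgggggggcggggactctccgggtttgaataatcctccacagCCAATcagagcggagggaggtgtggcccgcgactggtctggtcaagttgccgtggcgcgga
Hmgb1: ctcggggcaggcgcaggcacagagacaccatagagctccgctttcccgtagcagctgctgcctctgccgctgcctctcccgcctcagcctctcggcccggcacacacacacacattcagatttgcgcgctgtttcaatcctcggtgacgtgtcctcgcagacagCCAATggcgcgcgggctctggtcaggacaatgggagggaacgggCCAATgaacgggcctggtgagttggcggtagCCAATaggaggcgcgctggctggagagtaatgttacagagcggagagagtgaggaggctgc
The letters CCAAT were searched on both strands. They occurred 4 times in the Hmgb2 window, 3 times in that of Hmgb1 and 0 times in that of Hmga2. Of 32851 RefSeq windows of this length, 37.4% held them at least once. The windows of Hmgn1 and Hmgn2 held 2 and 1. A second annotated start of Hmgb1 had 0 in its window. TTTGAA, the core letters of the element called CHR, stood 2 times in the Hmgb2 window and 0 times in those of Hmga2 and Hmgb1, and 17.9% of all windows held them. GGGCGG, the GC box, occurred 1 time each in the Hmga2 and Hmgb2 windows, 5 times in that of Hmgn1 and 2 times in that of Hmgn2. The first and second windows of Hmgb1 held it 0 and 4 times, and 35.7% of all windows held it. These motifs were chosen with the sequences in view, a match does not show a bound site, and CCAAT counts do not separate the member that passed the test below from Hmgb1, which did not.

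Hmgb2 was the only one of the 4 other measured members with a change that passed the test. Its day 0 intensity was 843 in experiment A and 1556 in experiment B. Early it was 338, 217 and 382 at days 1, 2 and 3 of experiment A and 688 at day 2 of experiment B. The middle values were 296, 158, 209 and 202 at days 4 to 7 of experiment A and 743 at day 4 of experiment B. The late values were 215, 251, -185 and 154 at days 8, 9, 11 and 14 of experiment A and 575 at day 9 of experiment B. Every later array lay below the day 0 array of its own experiment, in 11 of 11 cultures of experiment A and 3 of 3 of experiment B. All later arrays also lay below both day 0 arrays, the highest being 743 against 843. Day 0 was 3.92-fold the later median in experiment A (3 of 11 later arrays at the floor) and 2.26-fold in experiment B (none at the floor).

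Against day 0, Hmgb2 was 2.01 ± 0.56 (SE, log2) lower in the middle phase (adjusted p = 0.0293) and 2.13 ± 0.56 lower late, or 4.38-fold (adjusted p = 0.0175). The early difference was -1.62 ± 0.57 (adjusted p = 0.164). Once experiment was added as a block it passed (-1.28, adjusted p = 0.0175), and the middle and late values were -1.61 (0.00159) and -1.73 (0.000739). In experiment A alone the values were -1.47 early (0.0774), -1.92 in the middle phase (0.0102) and -1.98 late (0.00796). Late against early the difference was -0.51 ± 0.45 (adjusted p = 0.789). The late call was lost without day 0 of experiment B (-1.69, adjusted p = 0.258). The middle call was lost without either day 0 culture, without day 5, 6 or 7 of experiment A, with a lower floor and with no filter.

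Counted over the 5 member probe sets other than that of Hmga2, 0 were called early, 1 middle, 1 late and 0 late against early, all of them lower, and 0 were higher in any comparison. Over all probe sets tested, 2.05% were called lower early, 4.58% in the middle phase, 6.08% late and 0.557% late against early. With 5 probe sets, 1 call of 5 is too few to set against these shares.

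Hmgb1 passed in none of the 4 comparisons. It read 914 at day 0 of experiment A and between 368 and 987 later (median 601), and 1638 at day 0 of experiment B and 1301, 1872 and 1188 later. Of the later arrays, 10 of 11 in experiment A and 2 of 3 in experiment B lay below their own day 0, and the ranges overlapped. The late difference from day 0 was -0.83 ± 0.55 (adjusted p = 0.414), with a 95% interval of ± 1.15, beside -2.13 ± 1.17 for Hmgb2. These intervals overlap, but both genes were read on the same arrays, so the overlap does not compare their changes. The early and middle differences were -0.88 ± 0.57 (adjusted p = 0.632) and -0.63 ± 0.55 (adjusted p = 0.619).

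Hmgn1, which loosens chromatin by competing with linker histone, had the smallest differences from day 0 of the tested members, and none passed. It read 9972 and 8317 at day 0 of experiments A and B. Later it lay between 4296 and 10263 in experiment A (median 7869) and between 8232 and 10637 in experiment B (median 9184). Its lowest arrays were day 11 (4296) and day 1 (4887) of experiment A, and its highest day 2 of experiment B. Differences from day 0 were -0.26 ± 0.34 early, -0.14 ± 0.33 in the middle phase and -0.36 ± 0.33 late (adjusted p = 0.914, 0.89 and 0.58). Its late interval was ± 0.70.

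Hmgn2 had 2 probe sets, both with names ending in f_at, which marks probes shared within a gene family, so other family members may contribute to either. The first read 1455 and 3812 at day 0 of experiments A and B, and later 669 to 1646 (median 1143) and 2032 to 2551 (median 2355). The second, X12944_f_at, read 2589 and 3891 at day 0, and later 988 to 1800 (median 1369) and 2279 to 3470 (median 3172). For the second, all 11 later arrays of experiment A and all 3 of experiment B lay below their own day 0; for the first, 9 of 11 and 3 of 3. Late differences from day 0 were -0.98 ± 0.49 (adjusted p = 0.252) and -1.06 ± 0.46 (adjusted p = 0.164). Early neither passed (adjusted p = 0.758 and 0.37), and in the middle phase the differences were -0.92 ± 0.49 (0.328) and -0.95 ± 0.46 (0.258). None passed, with or without the block.

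**Figure D2:**
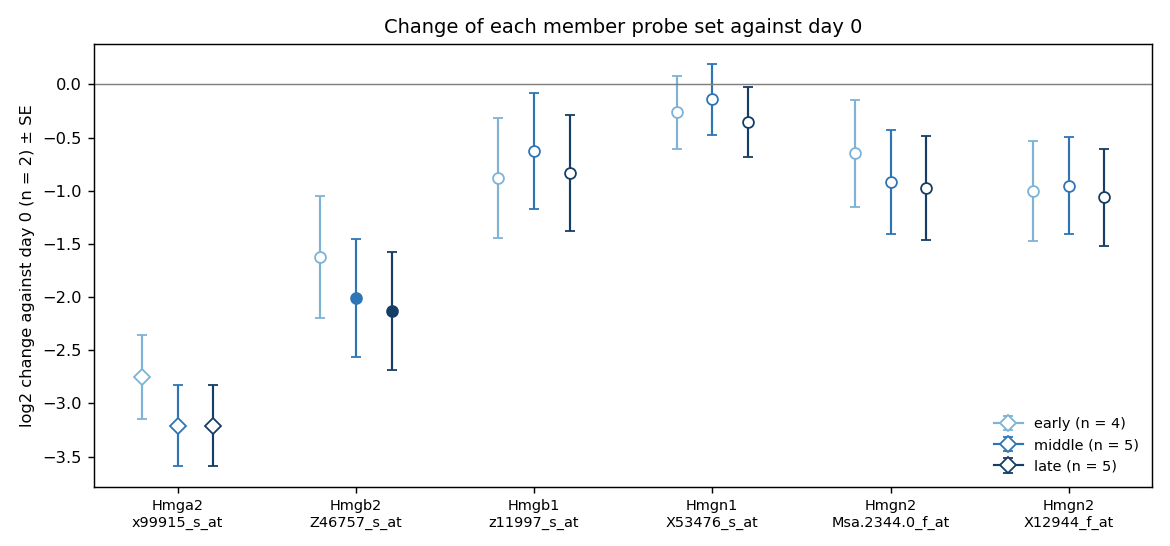
Log2 change of each member probe set early, middle and late against day 0, as the fitted change with its SE; filled circles passed an adjusted p of 0.05, open circles did not, and diamonds mark Hmga2, which was chosen for this change and not tested. Hmga2 lies lowest and is bounded by the floor, Hmgb2 is the only filled member, and Hmgn1 stays within 0.36 of 0.

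Hmgb2 was set beside the other tested members after its values had been seen, by taking its log2 difference to each other probe set on the same array, so these values are a description with no test. Averaged over the 14 later arrays, less the average of the 2 day 0 arrays, the change of Hmgb2 differed from that of Hmgb1 by -1.17. Against Hmgn1 the difference in change was -1.69, and against the Hmgn2 probe sets -1.08 and -0.94. Within experiment A the 4 differences were -1.19, -1.36, -1.42 and -0.86, and within experiment B -1.03, -1.39, -0.50 and -0.82.

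Hmgb1, Hmgb2 and both Hmgn2 probe sets were higher in experiment B on 4 of 4 shared days. The mean log2 difference was 1.23 ± 0.60 (SD over 4 days) for Hmgb1, 1.27 ± 0.32 for Hmgb2, and 1.16 ± 0.36 and 1.06 ± 0.53 for Hmgn2. For Hmgb1 the ratio of B to A ran from 1.51 at day 9 to 3.55 at day 2, and for Hmgb2 from 1.84 at day 0 to 3.17 at day 2. Hmgn1 was higher in B on 2 of 4 days (0.12 ± 0.38), and Hmga2 on 1 of 4, with both experiments at the floor on days 4 and 9. Of 1385 probe sets of design b above the floor on all 8 of these arrays, 20.8% were higher in B on 4 of 4 days and 3.39% had a mean difference over 1. The noise level of an array, the size below which 75% of its negative values lie, also differed: it was 75 to 160 on the 4 arrays of experiment B, and 184 on day 9, 153 on day 4, 234 on day 2 and 187 on day 0 of experiment A. Its part in the difference was not tested. Because experiment B gives 1 of 2 day 0 arrays but 1 of 5 late ones, this difference enters the comparisons with day 0 unless experiment is a block.

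**Figure D3:**
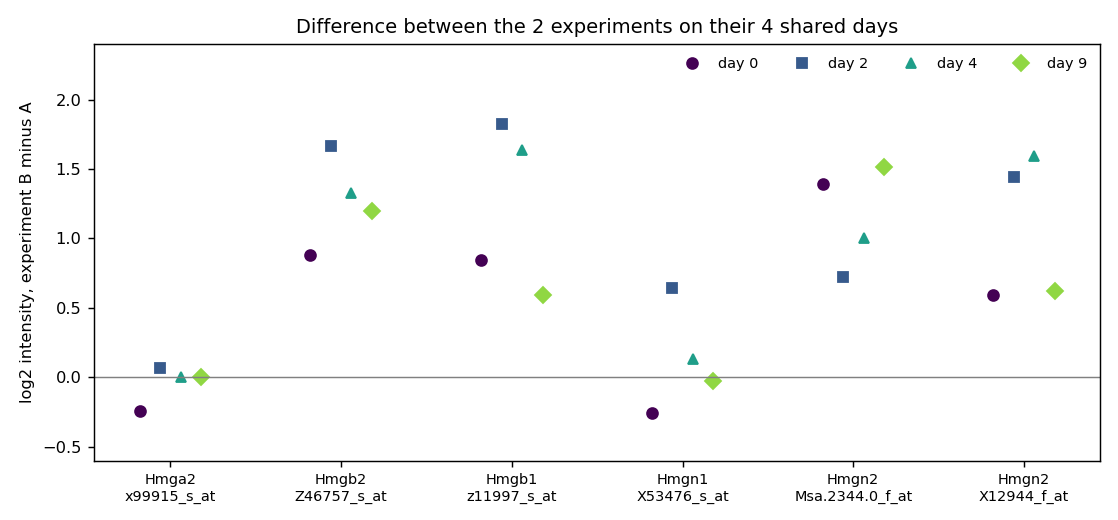
Log2 intensity in experiment B minus experiment A for each member probe set on the shared days 0, 2, 4 and 9, with 1 point per day. All 4 points of Hmgb1, Hmgb2 and both Hmgn2 probe sets lie above 0, while those of Hmgn1 and Hmga2 lie on both sides of 0 or at it.

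The probe sets with 1 gene symbol whose log2 values followed those of Hmga2 most closely over the 16 arrays of design b, out of 1192, were those of Cycs, Top2a, H2ax, Pom121, Mybl2, Nme2, Psmb8, Mki67, Slc25a5 and Acta2. Their Pearson correlation with Hmga2 ran from 0.932 for Cycs (cytochrome c) to 0.853 for Acta2 (smooth muscle actin). This ranking uses the same values for which Hmga2 was chosen and is a description. The probe sets of Cycs, Top2a, Nme2 and Slc25a5 are shared within a family, so other family members may contribute to them. Pom121 and Mybl2 were at the floor on all 14 later arrays and passed the filter only through day 0, so their likeness follows from their day 0 values. Because Hmga2 lay above the floor on only 4 arrays, this measure mainly reads whether a gene was highest on the day 0 arrays. Top2a, which encodes the DNA topoisomerase of dividing cells, read 919 and 847 at day 0 of experiments A and B and -67 to 641 later. Mki67, the Ki-67 proliferation marker, read 1712 and 1483 at day 0 and 461 to 1165 later. H2ax, a histone variant, read 3477 and 3062 at day 0 and 1527 to 2069 later. Psmb8, a subunit of the immunoproteasome, read 6356 and 5116 at day 0 and 671 to 1770 later. Of the 10, 6 were also among the 10 most alike by Spearman correlation and 6 with the lower floor. Without the need for a symbol, 9 of the 10 most alike probe sets had no name. Among members, Hmgb2 was the most like Hmga2 (r = 0.667, rank 174 of 3431), and Hmgn1 the least (r = 0.0451, rank 1127).

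Genes that work with HMG proteins were counted in lists chosen with earlier results of these data known. Of the other HMG-box and HMGN proteins, 14 probe sets of 11 genes were tested, and 2 of them were lower late, 1 in the middle phase and 0 in the other comparisons. Over all probe sets 2.05% were lower early, 4.58% in the middle phase, 6.08% late and 0.557% late against early. With experiment as a block 0, 2, 2 and 0 were lower and 1, 2, 1 and 0 higher, in the order early, middle, late and late against early. In the same order, 469, 959, 1117 and 184 of all 7726 probe sets passed with the block, lower and higher together. The block counts of the lists below also stand beside these totals. The lower ones were all probe sets of Hmgb3, the third HMGB gene, which is best known from embryonic and stem cells and lies on design a. Its probe set aa200970_s_at read 549 and 911 at day 0 of experiments A and B, and later 76 to 540 (median 259) and 306 to 386. The family-shared AA673176_rc_f_at read 522 and 747 at day 0, and later 124 to 535 (median 209) and 192 to 279. Late against day 0 the changes were -1.57 ± 0.50 (adjusted p = 0.0484) and -1.74 ± 0.38 (adjusted p = 0.00489). In the middle phase they were -1.62 ± 0.50 (adjusted p = 0.0506, and 0.0464 with experiment as a block) and -1.69 ± 0.38 (adjusted p = 0.0075). Neither late call held in experiment A alone (adjusted p = 0.353 and 0.117) or without day 0 of experiment B (0.44 and 0.0989). The middle call of the second was lost in the same settings (0.144 and 0.13). The late call of the first was also lost with the lower floor (0.122), with no filter (0.107) and when any 1 of 11 of the 16 cultures was left out. The median of the list was 0.17 late, beside 0.11 over all probe sets.

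Sox4, an HMG-box transcription factor of progenitor cells, had the largest positive difference of that list. On its brighter probe set the mean intensity was 1410 at day 0, 3340 early, 4140 in the middle phase and 3770 late, a late difference of 1.42 ± 0.47 (adjusted p = 0.0645, and 0.00107 with experiment as a block). The early and middle differences were 1.26 ± 0.49 (0.222, and 0.00595 with the block) and 1.54 ± 0.47 (0.0514, and 0.000508 with the block). Its second probe set gave 0.58 ± 0.40 late (adjusted p = 0.448) and passed in no comparison. Smarce1, an HMG-box subunit of the BAF chromatin remodeller, had 1.10 ± 0.34 in the middle phase (adjusted p = 0.0525, and 0.0224 with the block) and 0.74 ± 0.34 late (0.199). Of 3 linker histone probe sets (H1f5, H1f6 and H1f10), which bind where HMGN proteins do, 0 passed in any comparison, and their late differences lay between -0.11 and 0.24. For H1f5, 4 of 5 late arrays and 1 of 2 day 0 arrays were at the floor, and for H1f6 1 of 2 day 0 arrays. The floor thus limits these differences. Among all probe sets 6.08% were lower late, and 3 probe sets are too few to set against this share.

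A list of histone chaperones, acidic nuclear proteins and a few other nuclear proteins such as Hat1 and Apex1 had 21 probe sets of 15 genes tested. Of these, 2 were lower early, 5 in the middle phase, 7 late and 0 late against early, with 0 higher, beside 2.05%, 4.58%, 6.08% and 0.557% of all probe sets lower. With experiment as a block 4, 7, 8 and 1 were lower. The late median was -0.90. All late calls were of probe sets of Set, Ncl, Nap1l1, Anp32b and Hat1. Set, which encodes an acidic chaperone, had its 2 probe sets lower late by 2.18 ± 0.55 (adjusted p = 0.0133) and 1.22 ± 0.28 (0.00714). The first of these had 2 of 5 late arrays at the floor. Ncl, the nucleolar protein nucleolin, had -1.98 ± 0.35 (adjusted p = 0.00107). Of 3 probe sets of Nap1l1, a nucleosome assembly protein, 2 were lower, by 1.80 ± 0.42 (0.00786) and 1.73 ± 0.34 (0.00226). The first had 4 of 5 late arrays at the floor. Its late change was 3.49-fold, against 5.8-fold with the lower floor and 1.97-fold with the higher floor. The second is shared within a family, and its late change was -1.59 in experiment A alone. Anp32b, an acidic nuclear protein, had -1.58 early (adjusted p = 0.0235), -1.28 in the middle phase (0.0364) and -1.19 late (0.044). With no filter each of these calls was lost (0.0621, 0.0901 and 0.105). The middle and late calls were also lost with quantile normalization (0.0598 and 0.0702). The same held with the noise level as a covariate (0.0714 and 0.144). Early, Set on its brighter probe set and Nap1l1 on x61449_s_at passed only with the block (0.0741 and 0.0676, and 0.0108 and 0.00334 with it). Without day 0 of experiment B the counts were 0, 1 and 2 for early, middle and late, and in experiment A alone 2, 3 and 4.

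The let-7 and Hmga2 axis, meaning let-7 processing genes, let-7 targets and genes that Hmga2 is known to act on, had 17 probe sets tested. Of these 1 was lower early, 2 in the middle phase, 3 late and 0 late against early, beside 2.05%, 4.58%, 6.08% and 0.557% of all probe sets. None was higher, but with experiment as a block 1 was higher early and 2 in the middle phase. Myc, the growth-driving transcription factor, was lower late by 1.27 ± 0.23 (adjusted p = 0.00116) and early by 1.39 (adjusted p = 0.00221). For Myc 3 of 5 late arrays were at the floor, the calls were lost with the lower floor late (0.0572) and early (0.0981), and the late change was 2.41-fold against 1.44-fold with the higher floor. Ccna2, the cyclin A2 gene that is also in the cell cycle list, was lower late by 1.45 ± 0.34 (adjusted p = 0.00756), and in the middle phase it passed only with the block (0.0804, and 0.0394 with it). On 1 of 2 probe sets of Fosl1, a Fos-family transcription factor, 3 of 4 early, 5 of 5 middle and 5 of 5 late arrays were at the floor. It passed the filter only through day 0, and the middle and late counts of the list include it. Late it was at least 1.74-fold lower (adjusted p = 0.0396, and 0.0522 with the block). That value was 1.06-fold when the day 0 culture of experiment B was left out (adjusted p = 0.923) and 2.87-fold when that of experiment A was. The other probe set of Fosl1 had -1.91 ± 0.78 (adjusted p = 0.138, and 0.0258 with the block). The late median was -0.11, and without day 0 of experiment B 1 late call was left.

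Igf2, a growth factor, had a mean intensity of 570 at day 0, 1600 early, 1500 in the middle phase and 981 late. Its differences from day 0 were 1.71 ± 0.54 early (adjusted p = 0.103, and 0.0296 with the block), 1.498 ± 0.53 in the middle phase (0.0923, and 0.0464 with the block) and 0.97 ± 0.53 late (0.298). Its probe set is shared within a family. Cdkn2a, which encodes inhibitors of the cell cycle, had 0.82 ± 0.51 early (adjusted p = 0.615), 1.22 ± 0.49 in the middle phase (0.157, and 0.0319 with the block) and 0.74 ± 0.49 late (0.426).

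Of 8 probe sets of Hmgb1 receptors, partners and adaptors, 0 were lower early and 1 in each other comparison, always that of Cxcl12, the chemokine that Hmgb1 can bind. Among all probe sets 2.05%, 4.58%, 6.08% and 0.557% were lower early, middle, late and late against early. With 8 probe sets, 1 call is too few to set against these shares. Cxcl12 had a late difference of -1.87 ± 0.27 (adjusted p = 0.000179) and was also lower late than early (-1.35, adjusted p = 0.00406). The list's late median was 0.25. Myd88, the adaptor of Toll-like receptors, and Cd14 had late differences of 0.38 ± 0.34 and 0.54 ± 0.39 (adjusted p = 0.566 and 0.465).

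Cell cycle and DNA replication genes were counted because Hmga2 and Hmgb2 are both known from dividing cells. Of 46 probe sets, 7 were lower early, 17 in the middle phase, 22 late and 2 late against early, with 0 higher in any, beside 2.05%, 4.58%, 6.08% and 0.557% of all probe sets lower. Without day 0 of experiment B these counts were 3, 6, 12 and 2, and in experiment A alone 3, 8, 14 and 0. The late median was -1.09. With experiment as a block 10, 21, 24 and 4 were lower. The count includes Mybl2, which was at the floor on all 14 later arrays and passed the filter only through day 0. Named by the size of the fitted late change, the first 4 genes were Rrm2, the small subunit of ribonucleotide reductase (at least 6.76-fold lower on m14223_s_at, adjusted p = 0.000108), Ccnb2 (cyclin B2, -2.29 ± 0.39, adjusted p = 0.000814), Rrm1 (-2.19 ± 0.38, adjusted p = 0.000814) and Tk1 (thymidine kinase, -2.17 ± 0.29, adjusted p = 9.08e-05). Of the late arrays, 3 of 5 were at the floor for Ccnb2, 1 for Rrm1, 4 for Tk1 and 5 for Rrm2, so the floor limits these changes and their order. Top2a on d12513_f_at, with 5 of 5 at the floor, was at least 3.49-fold lower, and 7.69-fold with the lower floor. The late difference of Hmgb2 was -2.13, with its own SE of 0.56. Early, Tk1 was lower by 1.98 (adjusted p = 0.000782) and 1 probe set of Rrm2 by 1.58 (0.0279), a call lost in experiment A alone (0.113) and without day 0 of experiment B (0.259). Ccnb2 passed early only with the block (-1.43, adjusted p = 0.0582, and 0.0338 with it).

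**Figure D4:**
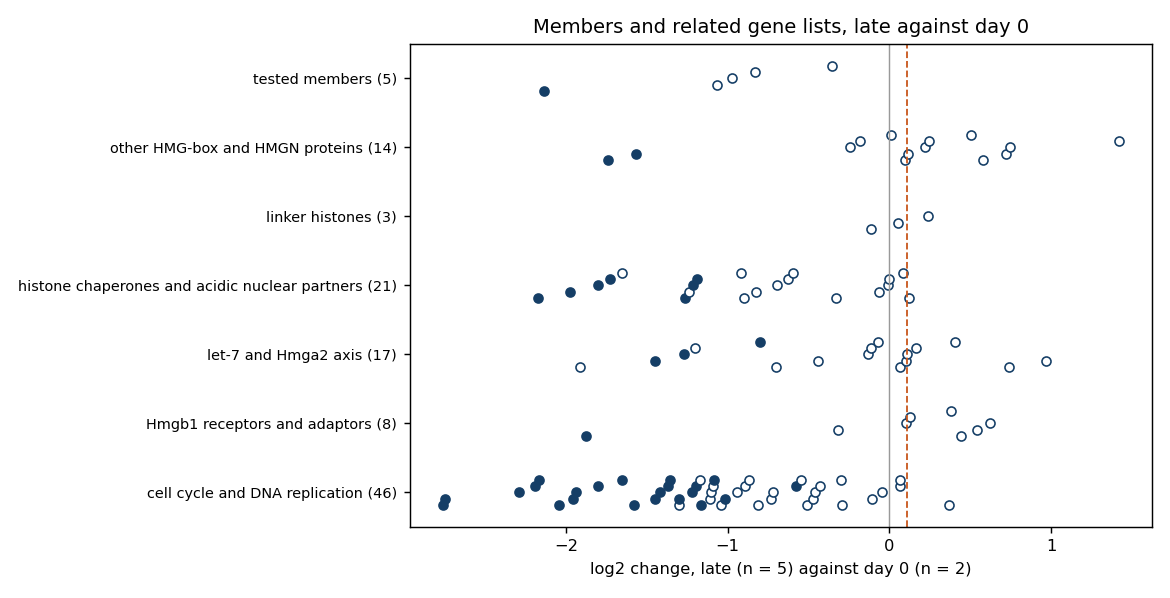
Log2 change late against day 0 of each tested probe set, for the 5 tested member probe sets and 6 gene lists, with the number of probe sets in brackets; filled points passed an adjusted p of 0.05, the solid line is 0 and the dashed line is the median of all probe sets (0.11). The filled points of the HMG list are both Hmgb3, and the cell cycle list has 22 filled points, all below 0.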

How the data were processed

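Total RNA of 16 cultures was measured on 2 oligonucleotide array designs, 32 arrays in all. The authors deposited 1 table of intensity values per design, linear whole numbers of which 22.9% (design a) and 33% (design b) were negative. The trimmed mean of every array lay between 300.4 and 300.8, so the values had been scaled, and they were used as deposited. Which software and background method made them is not given in the sources used here. Symbols came from the platform annotation.

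The 61 controls per design were left out. Values under the floor (141 and 198) were set to it, and probe sets above it on at least 2 arrays (4294 and 3432) were tested on the log2 scale with limma 3.58.1 (lmFit, eBayes with trend and robust, R 4.3.3), each design fitted alone with all phases. P-values were two-sided, adjusted by the Benjamini-Hochberg method over all 7726, with a threshold of 0.05. Intensities have no counts behind them, so the number of arrays limits the precision.

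Experiment is the replicate shared between days. Differences between experiments A and B correlated between days (r from 0.274 to 0.726), so experiment pairs the arrays. The value or count from the fit with this block stands beside a member's result or a list's count where it changes the call. Separate cultures per day are implied by the labels, and p-values measure the spread between these arrays.

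Every member probe set is named. Of the list genes, some that passed, some that passed only with the block and some defining members of a list are named. Other list genes that passed, with or without the block, are in the counts only. Members and lists were chosen with earlier results of these data known. Alternatives were the block, experiment A alone, 2 other floors, no filter, quantile normalization, a plain eBayes, the noise level as a covariate, and leaving out each culture. The scripts were tested on simulated data.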

Additional observations from a re-analysis of the deposited data

Results flagged for a closer look

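In the early phase, Hmga2 on day 1 of experiment A read 669, far from the other 3 early arrays, the nearest of which was 207. The gap was 0.964 of the group's range on the log2 scale, above the critical value for 4 arrays. Days 2 and 3 of experiment A (162 and 192) were first set to the floor, which draws the other early arrays together. Because Hmga2 was chosen by its early fall, the flag is a description with no test. The flagged array is the only one of day 1, and the difference between days was not separated from the difference between arrays.

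In the late phase, Hmgb2 on day 9 of experiment B read 575, above the other 4 late arrays, all of experiment A, the nearest of which was 251. The gap was 0.777 of the range on the log2 scale, above the critical value for 5 arrays. Days 11 and 14 of experiment A (-185 and 154) were first set to the floor, which shortens that range. Hmgb2 was higher in experiment B on 4 of 4 shared days. Of 22 groups examined in this way 2 stood out, and chance gives about 1 in 20 where no array is set to the floor. Both of these groups held arrays at the floor.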

How the results depend on the processing

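Each member result and each count over all probe sets was computed under 24 alternatives, 16 of which leave out 1 culture. The likeness to Hmga2 had 2, and the ratios of Hmgb2 to other members had none. Hmgb2 stayed lower than day 0 in all of them in the 3 phases. Its middle call was kept in 17 (adjusted p from 0.00159 to 0.338) and its late call in 23 (0.000739 to 0.258), and early it was called in 2 (adjusted p from 0.0175 to 0.746). Of the 5 tested member probe sets, 1 was thus called early with experiment as a replicate block and with the higher floor. In the middle phase 0 were called with the lower floor (adjusted p of Hmgb2 0.0773) or no filter (0.0565). Leaving out cultures, 0 to 1 were called middle and late, and 0 early. The fitted difference of Hmga2 moves with the floor, from -2.25 to -4.05 late with the higher and lower floor.

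Small differences that had passed no test changed sign under some alternatives. With the noise level as a covariate, Hmgb1 and Hmgn1 in the middle phase were 0.0236 and 0.0883, and late against early Hmgn1 was 0.0189 and X12944_f_at of Hmgn2 0.225. In experiment A alone these last values were 0.0154 and 0.126. Leaving out cultures, the first Hmgn2 probe set ran from -1.34 to 0.0456 early, and late against early Hmgb1 ran from -0.234 to 0.373, Hmgn1 from -0.306 to 0.0881 and X12944_f_at from -0.288 to 0.273. The cause was not tested.

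Over all probe sets, 270 passed early, with 469 under the block, 173 in experiment A alone and 451 with the noise covariate, and 126 to 338 without 1 culture. In the middle phase 633 passed, with 959 under the block and 321 to 717 without 1 culture. Late 844 passed, with 555 in experiment A alone and 402 to 929 without 1 culture. Late against early 76 passed, with 184 under the block, 31 in experiment A alone, 40 without a filter, 166 with the noise covariate, and 30 to 118 without 1 culture. The lowest counts against day 0 came without day 0 of experiment B. The median likeness to Hmga2 of the 10 genes named was 0.909, and 0.76 by Spearman and 0.865 with the lower floor. List counts under the alternatives were added after seeing the data.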
